A study of Drosophila melanogaster with 2 samples.

Results

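The intronic binding sites of Dan in the Drosophila melanogaster embryo are the 403 peaks whose summits lay in introns of protein-coding genes, away from any promoter. A peak was counted as intronic if its summit lay more than 500 bp from every protein-coding transcription start site (TSS), inside a protein-coding gene body, in no annotated exon, and not between divergent start sites that were both within 1000 bp. These 403 peaks were 31.0% of the 1301 peaks on the chromosome arms, and the whole list held 1396. They were also 0.868% of the 46442 intronic regions that the authors had ranked, against 1.02% for all ranked regions on the arms. The 45998 intronic regions that missed the authors' threshold and overlapped no peak are called weaker intronic regions here. By the same annotation 468 peaks lay at promoters (3.65% of the ranked regions there), 284 between genes (0.856%) and 146 in exons (0.42%).

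The peaks come from chromatin immunoprecipitation followed by sequencing (ChIP-seq) of whole embryos aged 0 to 8 h. The flies, strain dan-GFP, carried an insertion that tags Dan with the fluorescent protein eGFP, and the tagged protein was pulled down with an antibody against GFP. There was 1 group with 2 biological replicates, sheared by sonication to fragments of 200 to 800 bp, and no second condition. Whole embryos mix all cell types and stages of that window, and a control alignment entered the peak calls. The depth of each library is unknown.

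Dan (Distal antenna) is a nuclear protein with a pipsqueak-type DNA-binding domain that is known for antennal identity and, with its neighbour Danr, for eye and neuroblast development. In flies many enhancers, the elements that direct where and when a gene is transcribed, lie in introns, often in the first intron. A ChIP summit in an intron marks where the protein or a partner was crosslinked and does not name the gene it acts on.

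The first 6 windows show what these sites look like at the sequence level, each running 120 bp to either side of a summit. They belong to the strongest intronic peaks found in both replicates' own lists on the arms printed here, and are given on the plus strand of dm6. Capitals mark each CAGTG, read on either strand, so that CACTG is the same string on the other strand. CAGTG had been among the 25 strings searched because earlier results of these data pointed to it.
CG11050 intron, chr2L:6612607-6612847: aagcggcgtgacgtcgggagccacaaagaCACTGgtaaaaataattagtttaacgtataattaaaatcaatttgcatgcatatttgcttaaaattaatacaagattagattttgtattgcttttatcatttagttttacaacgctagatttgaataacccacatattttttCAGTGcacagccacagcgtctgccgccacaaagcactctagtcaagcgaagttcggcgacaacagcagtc
LPCAT intron, chrX:9579189-9579429: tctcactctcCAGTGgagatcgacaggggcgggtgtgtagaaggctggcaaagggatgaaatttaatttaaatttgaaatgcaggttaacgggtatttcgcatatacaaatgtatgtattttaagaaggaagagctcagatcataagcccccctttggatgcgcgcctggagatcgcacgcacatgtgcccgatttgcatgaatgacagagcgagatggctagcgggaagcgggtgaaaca
CG32772 intron, chrX:4910253-4910493: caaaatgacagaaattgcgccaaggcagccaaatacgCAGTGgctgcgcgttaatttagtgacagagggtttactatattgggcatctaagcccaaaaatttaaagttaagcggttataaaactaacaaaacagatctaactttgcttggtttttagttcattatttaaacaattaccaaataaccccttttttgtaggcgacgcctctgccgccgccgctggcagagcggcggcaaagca
Tlk intron, chrX:3742111-3742351: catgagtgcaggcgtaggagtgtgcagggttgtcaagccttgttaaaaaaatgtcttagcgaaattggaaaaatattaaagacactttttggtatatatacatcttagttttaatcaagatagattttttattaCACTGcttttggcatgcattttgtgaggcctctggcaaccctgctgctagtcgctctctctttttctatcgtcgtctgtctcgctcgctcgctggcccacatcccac
CG32486 intron, chr3L:3060672-3060912: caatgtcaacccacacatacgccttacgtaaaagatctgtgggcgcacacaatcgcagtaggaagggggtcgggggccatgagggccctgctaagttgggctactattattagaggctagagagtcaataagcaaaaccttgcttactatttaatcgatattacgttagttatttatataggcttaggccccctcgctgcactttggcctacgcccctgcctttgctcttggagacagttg
CG3726 intron, chrX:5918801-5919041: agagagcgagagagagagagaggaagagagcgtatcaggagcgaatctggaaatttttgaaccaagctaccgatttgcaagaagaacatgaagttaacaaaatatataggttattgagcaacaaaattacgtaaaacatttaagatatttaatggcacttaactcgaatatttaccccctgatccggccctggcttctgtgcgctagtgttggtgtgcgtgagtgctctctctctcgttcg
In the CG11050 window the 2 matches lay 89 bp to the left and 53 bp to the right of the summit, and the 81 bases at the centre had a GC content of 23.5%. The shortest annotated intron holding this summit is only 140 bp long, with an exon edge 54 bp away. The window therefore reaches into exons, and both matches lie at the ends of that intron, next to or across its splice sites. LPCAT, which encodes a lysophosphatidylcholine acyltransferase, and the uncharacterised CG32772 each had 1 match, 108 and 81 bp from the summit. Tlk, the gene of the Tousled-like kinase, had its 1 match 16 bp from the summit. The CG32486 and CG3726 windows had 0 matches, so the string was not a fixed feature of the strongest sites.

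A further 3 windows were chosen for having a match on both sides of the summit, and are examples only. They lie in introns of aop, which encodes the ETS repressor Yan, of CG32264, and of zfh1, which encodes a zinc-finger homeodomain repressor of mesoderm and other tissues.
aop intron, chr2L:2163530-2163770: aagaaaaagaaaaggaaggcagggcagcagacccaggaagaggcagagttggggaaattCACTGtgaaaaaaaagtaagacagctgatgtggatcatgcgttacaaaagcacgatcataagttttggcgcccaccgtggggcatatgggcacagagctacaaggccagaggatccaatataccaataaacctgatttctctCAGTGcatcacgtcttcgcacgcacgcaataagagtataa
CG32264 intron, chr3L:3785115-3785355: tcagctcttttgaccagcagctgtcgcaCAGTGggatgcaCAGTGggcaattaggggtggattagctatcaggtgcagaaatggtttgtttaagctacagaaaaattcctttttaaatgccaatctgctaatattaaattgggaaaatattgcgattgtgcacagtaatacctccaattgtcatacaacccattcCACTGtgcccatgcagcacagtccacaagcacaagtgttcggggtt
zfh1 intron, chr3R:30781658-30781898: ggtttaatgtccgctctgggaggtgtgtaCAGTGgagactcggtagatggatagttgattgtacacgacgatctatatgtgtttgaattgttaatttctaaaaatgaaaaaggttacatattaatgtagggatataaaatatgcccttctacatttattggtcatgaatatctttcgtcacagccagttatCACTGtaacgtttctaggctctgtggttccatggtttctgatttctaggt
The matches in aop lay 59 and 83 bp from the summit, those in CG32264 lay 90 and 78 bp to the left and 77 bp to the right, and those in zfh1 lay 89 and 73 bp away. In zfh1 the centre was AT-rich, with a GC content of 24.7%, whereas in aop it was 51.9%.

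Across all 403 intronic peaks, CAGTG was found at the flanks of the summit more often than at the summit itself. The string occurred 5.47 times per kb at 40 to 120 bp from the summit, against 2.51 times per kb within 40 bp and 2.07 per kb farther out, up to 500 bp. The bounds of 40 and 120 bp were set after the profile had been seen. The weaker intronic regions had 2.06 matches per kb in the flanks, 2.14 at the centre and 1.86 outside, a profile with no such rise. A match in at least 1 flank was present in 237 intronic peaks, or 58.8% (95% exact binomial interval 53.8 to 63.7%), against 27.3% of the weaker intronic regions. In 70 peaks, or 17.4%, both flanks held a match, against 2.52% of the weaker regions. These shares are descriptions and were not tested.

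**Figure D1:**
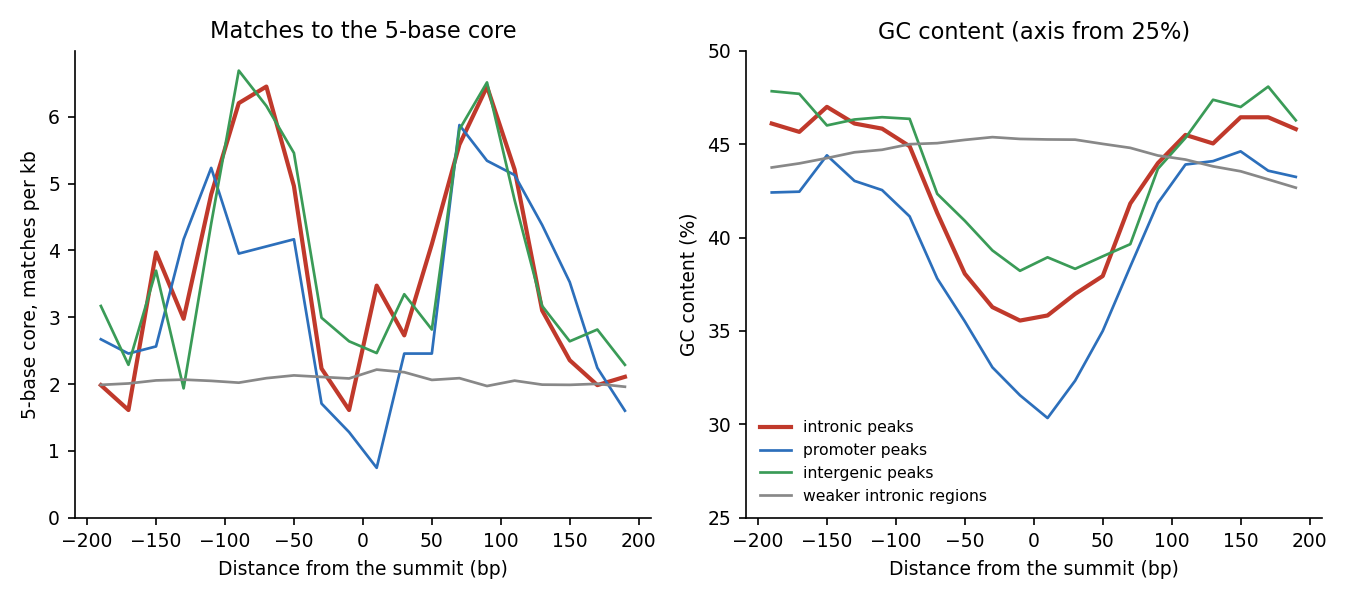
Matches to CAGTG per kb (left) and GC content in percent (right) in bins of 20 bp, by distance from the summit in bp, for intronic peaks, promoter peaks, intergenic peaks and weaker intronic regions (lines are means over all regions of a kind). The intronic peaks reach 6.45 matches per kb on either side of an AT-rich centre of 35.6% GC, and the weaker intronic regions stay near 2 matches per kb throughout.

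The GC content was also lowest at the summit. It was 36.1% within 40 bp of the intronic summits, 42.5% in the flanks and 44.2% outside, against 45.3%, 44.8% and 41.8% in the weaker intronic regions. Among windows with a GC content of 30 to 40% a flank match was present in 64.9% of 208 intronic peaks and in 23.6% of 9376 weaker regions. The same arrangement was seen in each replicate's own list, with a flank match in 62.1% of 335 intronic peaks of replicate 1 and in 69.7% of 145 of replicate 2. Promoter peaks had a flank match in 49.8% and intergenic peaks in 55.6%, both with the same fall towards the summit. Exonic peaks, with 36.3%, had 3.04 matches per kb in the flanks and 2.96 at the centre.

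Of the 2080 strings of 6 letters that can be told apart when both strands are combined, the 3 that differed most between intronic peaks and weaker intronic regions of 30 to 40% GC all contain CAGTG. The first, ACAGTG, was in 28.8% of these intronic windows of 201 bp and in 8.19% of the weaker ones. CAGTGC was in 27.4% of the intronic windows, against 9.46%. CAGTGG was in 22.6%, against 7.20%. Over all windows CAGTG was in 242 of the 403 intronic peaks (95% exact binomial interval 55.1 to 64.9%), against 46.6% of promoter peaks, 59.5% of intergenic peaks and 33.0% of weaker intronic regions.

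Other strings were searched the same way, on both strands. GAGAGA, the string bound by GAGA factor, was in 12.2% of intronic windows, against 9.40% at promoters, 14.1% between genes and 7.42% of weaker intronic regions. Up to 50 bp from the intronic summits GAGAGA occurred 0.471 times per kb, against 0.581 in weaker intronic regions. At 150 to 200 bp, outside the windows, it occurred 2.01 times per kb, against 0.590. The early-embryo string CAGGTAG of the pioneer factor Zelda was in 1.24% of intronic windows, against 0.898% of weaker intronic regions. Its shorter core AGGTA was in 24.6%, against 21.8% at promoters, 22.2% between genes and 14.3% of weaker intronic regions. CATATG, an E-box bound by Twist, was in 10.4%, against 5.34% at promoters, 7.39% between genes and 5.73% of weaker intronic regions. CACACACA went the other way, with 3.23% of intronic windows and 7.61% of weaker ones. TATCGATA, a string typical of housekeeping promoters, was in 0 of 403 intronic windows, which allows a share of up to 0.744%, against 2.35% of promoter windows, 0.704% of intergenic windows and 0.235% of weaker intronic regions. The last 2 shares lie inside that limit. A match is not a binding event, and no match says only that these letters are not in the window.

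The strength of each peak is the authors' signal, a value of their peak caller whose scale is not stated. It ranks peaks within a list, and the values of the replicates stand beside the joint value without being compared with it. The median joint signal of the intronic peaks was 96.3, with quartiles of 73.5 and 134 and a range of 4.08 to 1079. A region of replicate 1's ranked list overlapped 398 of the 403, with a median signal of 56.1, and one of replicate 2's overlapped 376, with a median of 43.3. Over the 371 with a region in both, the signals of the replicates had a Spearman correlation of 0.60 and a Pearson correlation of 0.71 on the log10 scale. The points share the joint call that selected them.

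**Figure D2:**
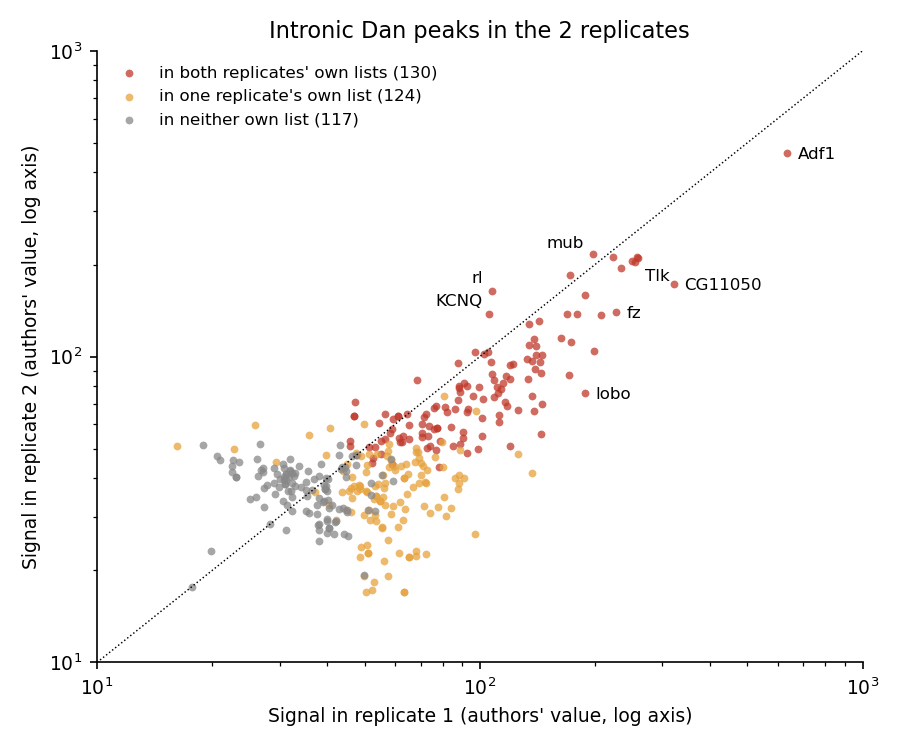
Signal of each intronic peak in replicate 1 (x axis) and replicate 2 (y axis), the authors' values on log axes, for the 371 peaks with a region in both, with the dotted line marking equal values. The 130 peaks in both own lists form the upper right of the cloud, with Adf1 apart from the rest, and the 117 in neither own list lie at the lower left.

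The strongest intronic peak lay in the first intron of Adf1, which encodes a Myb-type (MADF) transcription factor. Its joint signal was 1079, with 637 in replicate 1 and 463 in replicate 2. It stood above every other intronic peak in both replicates. The next was that of CG11050, with 495 in the joint list, 321 in replicate 1 and 173 in replicate 2. LPCAT followed with 472, 258 and 211, in the same order of lists.

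Chromatin and RNA-binding genes were among the next hosts. The peak shared by HmgZ and HmgD, neighbouring genes of HMG-box proteins that bend DNA, had a joint signal of 471, with 259 in replicate 1 and 209 in replicate 2. Tlk had 454 in the joint list, with 254 and 203 in the replicates. In mub, which encodes a KH-domain RNA-binding protein, the joint signal was 406 and replicates 1 and 2 had 197 and 216. The order of these sites and LPCAT differed between the replicates, with mub the lowest of the 4 in replicate 1 and the highest in replicate 2. In fz, the gene of the Frizzled receptor of Wnt and planar polarity signalling, the joint signal was 378, with 227 in replicate 1 and 140 in replicate 2, and the nearest TSS, 25281 bp away, was that of CG13482.

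Of the genes known from EGF receptor and MAPK signalling, 4 were hosts among these strongest peaks. They were put together after their values were seen, and edl and rl are in none of the gene lists used below. The stronger of 2 peaks in aop, whose product Yan is a nuclear target of this route, had a joint signal of 345, with 188 in replicate 1 and 159 in replicate 2. edl encodes a small regulator of the ETS factors, and its peak had 278 in the joint list, 143 in replicate 1 and 130 in replicate 2. S encodes Star, which is needed to process EGF receptor ligands, and its stronger peak had 274, 135 and 128. The peak of rl, the gene of the MAP kinase ERK, had 267 in the joint list, 108 in replicate 1 and 163 in replicate 2. All 4 peaks were in both replicates' own lists, which was a condition of their choice. The rl peak differs from the others in sequence: 92.0% of its 201-bp window was soft-masked as repeats, and its GC content was 55.2%.

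Other strong hosts with a known function were Pak3, a p21-activated kinase (332 in the joint list, 172 in replicate 1, 185 in replicate 2), sbb, a transcriptional corepressor (317, 199 and 104), and Hr3, a nuclear receptor of the ecdysone cascade whose peak also lies in CG46321 and CG12912 (313, 169 and 138). zfh1 had 283, with 173 and 111 in the replicates, chif, the Dbf4-like activator of a replication kinase, had 281 at a site shared with Hyls1, with 163 and 115, and the potassium channel gene KCNQ had 266, with 106 and 138. The TSS nearest to the KCNQ peak, 756 bp away, was that of another gene, mlt. The peak in Trl, the gene of GAGA factor, had a joint signal of 320 and 174 in replicate 1. No ranked region of replicate 2 overlapped it, so replicate 2 gives no value for this site.

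Of the 403 intronic peaks, 270 overlapped a peak of replicate 1's own list, 139 one of replicate 2's, 130 both and 124 neither. Each replicate's own list held intronic peaks at a similar or lower rate than the joint list, with 0.851% of the ranked intronic regions of replicate 1 (0.934% of all its ranked regions on the arms) and 0.367% of those of replicate 2 (0.491%). A small set of 19 intronic peaks had a joint signal under 30, although only 2 lay between 30 and 50. Of these 19, 18 had another peak's summit within 1000 bp, and the replicate values given for such a summit can be those of its stronger neighbour. The 8.28 peak beside brk, the gene of the repressor Brinker, is an example, with its neighbour 239 bp away at 114.

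When the intronic peaks were split into quintiles by joint signal, the sequence features changed with the signal. The mean GC of the 201-bp windows was 36.9 ± 6.43% in the strongest quintile and 35.5 ± 5.34%, 37.8 ± 7.68%, 41.7 ± 8.65% and 44.5 ± 8.50% in the next quintiles (SD over 80 or 81 peaks). A flank match to CAGTG was present in 71.6%, 71.3%, 66.7%, 45.0% and 39.5% of the peaks, and a match on both sides in 23.5%, 31.3%, 17.3%, 8.75% and 6.17%. The lowest quintile was thus closer to the 27.3% of the weaker intronic regions than the highest was. The share in both replicates' own lists was 87.7%, 57.5%, 12.3%, 0% and 3.70%, and the 0 of 80 in the quintile before the lowest allows up to 3.75%. The joint signal comes from both replicates together, so this share is tied to it by construction. The lowest quintile holds all 19 peaks with a signal under 30, of which 18 had another peak's summit within 1000 bp. Their overlaps with own lists can be those of a stronger neighbour, and their windows can lie beside its summit. Across the 403 peaks the Spearman correlation with signal was -0.34 for GC content, -0.25 for distance to the TSS and -0.08 for intron length, as descriptions over peaks of the same libraries.

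**Figure D3:**
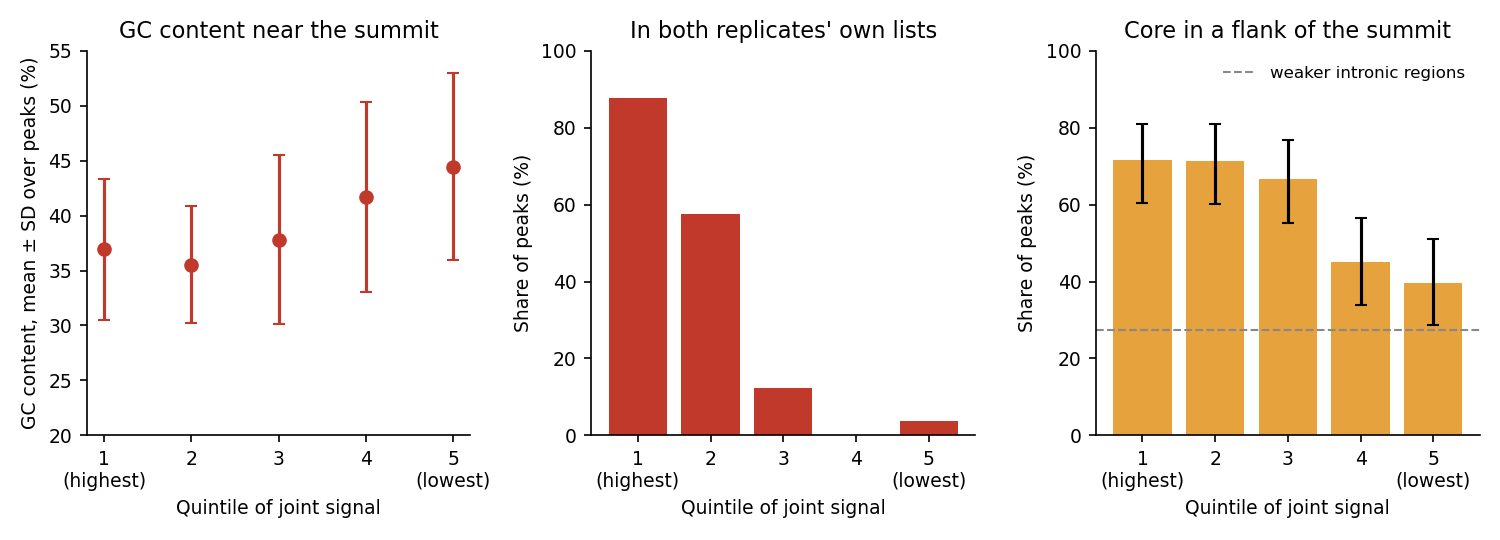
Intronic peaks in quintiles of joint signal, from the highest to the lowest, with the mean GC content of the 201-bp window and its SD over peaks (left, axis from 20%), the share in both replicates' own lists (centre) and the share with CAGTG at 40 to 120 bp from the summit with 95% exact binomial intervals (right). The dashed line marks the 27.3% of the weaker intronic regions, and the flank share is 39.5% in the lowest quintile, against 71.6% in the highest. The joint signal and the own lists draw on the same replicates, so the centre panel is no independent check.

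Intronic peaks lay nearer to gene starts than the weaker intronic regions did. The median distance to the nearest protein-coding TSS was 3462 bp, against 7298 bp, and the median length of the intron was 11430 bp, against 14117 bp. A first intron of some transcript of the host held 251 of the 403 summits, or 62.3% (57.4 to 67.0%), against 41.7% of the weaker regions (Fisher's exact test, two-sided, adjusted p = 1.23e-15). The tests count peaks, which are not replicates of a condition, so they cover counting error only. Distance to the TSS moved with this share. At 500 to 1000 bp the first-intron share was 79.4% of 68 peaks against 70.5% of the weaker regions. That range held 16.9% of the intronic peaks and 5.94% of the weaker regions. Within 1000 to 5000 bp the first-intron share was 72.4% of 174 peaks against 55.6% of the weaker regions. Within 5000 to 20000 bp it was 50.4% of 125 peaks against 39.8%, and beyond 20000 bp it was 22.2% of 36 against 15.1%. Among the intronic peaks 12 had a summit within 100 bp of an exon edge, and 7 lay within 500 bp of a TSS of a non-coding gene.

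At the edge of the 500 bp limit, the nearest peaks inside were those of MESR3, 514 bp from a TSS with a signal of 101, Pen, 515 bp with 175, and gce, 523 bp with 114. The nearest outside were at ph-p, 498 bp with 951, CG4496, 498 bp with 191, and aru, 483 bp with 120.

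The X chromosome held more intronic peaks for its length than the autosomes. It had 111, which were 46.8% of all its 237 peaks, against 24.4 to 30.8% on the arms 2L, 2R, 3L and 3R. This came to 12.2 intronic peaks per Mb of intron that the rule allows, against 6.89 on 3L, 7.25 on 3R, 7.80 on 2L and 8.22 on 2R. The ranked regions were not denser to the same degree, since 1.27% of the X's ranked intronic regions were peaks, against 0.718 to 0.856% on those arms. On chromosome 4, 0 of 2 ranked intronic regions were peaks, and on Y 0 of 291. A flank match to CAGTG was present in 68.5% of the X peaks and in 55.1% of the autosomal ones. The X difference was not tested.

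The 403 summits fell into 310 host genes, 13 of them in 2 overlapping genes at once and 1 in 3. These were 8.92% of the 3477 protein-coding genes with a ranked region in an intron. The share grew with intron length: it was 2.00% for genes with up to 2 kb of allowed intron, 7.36% for 2 to 10 kb, 15.4% for 10 to 50 kb and 32.0% above. For 320 summits the nearest TSS belonged to the host, and for 83 to another gene. In 65 hosts there were 2 or more intronic peaks, and these hosts held 171 of the 403. A promoter peak lay in the gene body or within 500 bp of it for 40 of the hosts, or 12.9%, against 268 or 7.71% of all 3477 genes with a ranked region in an intron, a difference that was not tested. The hosts had a median of 16535 bp of allowed intron, against 4043 bp for all 3477 genes, and these shares are not adjusted for length.

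Raf and CG1677 had the most, with 7 each. Raf encodes the kinase between Ras and MEK in the MAPK route. Its peaks had joint signals of 235, 176, 105, 84.7, 76.3, 69.7 and 8.46. The first 2 were in both own lists, with 133 and 102 in replicate 1 and 98.5 and 72.7 in replicate 2. They lay 2264 and 5265 bp from the TSS of Raf, while the peaks of 105 and 84.7 were nearer to CG14050.

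The 7 peaks in CG1677 were all nearest to the start of another gene. For 3 of them, at 149, 135 and 132, the nearest TSS was that of unc-119. For 2, at 114 and 8.28, it was that of brk, which encodes the repressor that BMP signalling relieves. The strongest, at 195, overlapped the body of Dok, an adaptor gene, and had no region in replicate 2.

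Hr4, a nuclear receptor gene of the ecdysone cascade, had 6 peaks spread over 39979 bp. Their joint signals were 191, 134, 124, 89.2, 79.5 and 62.3. The strongest 3 were in both own lists, with 118, 76.9 and 70.5 in replicate 1 and 68.9, 68.8 and 56.3 in replicate 2. CHES-1-like, a forkhead gene, had 4 peaks between 102 and 188, of which 3 were in both own lists. CG43658 and DIP-lambda also had 4 each, at lower signals of up to 108 and 79.4. apt, which encodes the transcription factor Apontic, had 5 between 78.5 and 126, of which 1 was in both.

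In shn, the gene of the zinc-finger protein Schnurri that acts with Mad in BMP signalling, the 5 peaks had signals of 207, 131, 61.7, 60.8 and 4.58. The last lay 203 bp from the first. sick had 5 between 8.04 and 199. Myo81F, a myosin gene of 1966 kb near the centromere of 3R, had 6 between 36.9 and 115, of which 0 were in both own lists, and these lay 745631 bp or more from any protein-coding TSS. With peaks of at least 30 only, Raf had 6, CG1677 had 6, shn 4 and sick 4, and the other 4 genes kept their number.

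**Figure D4:**
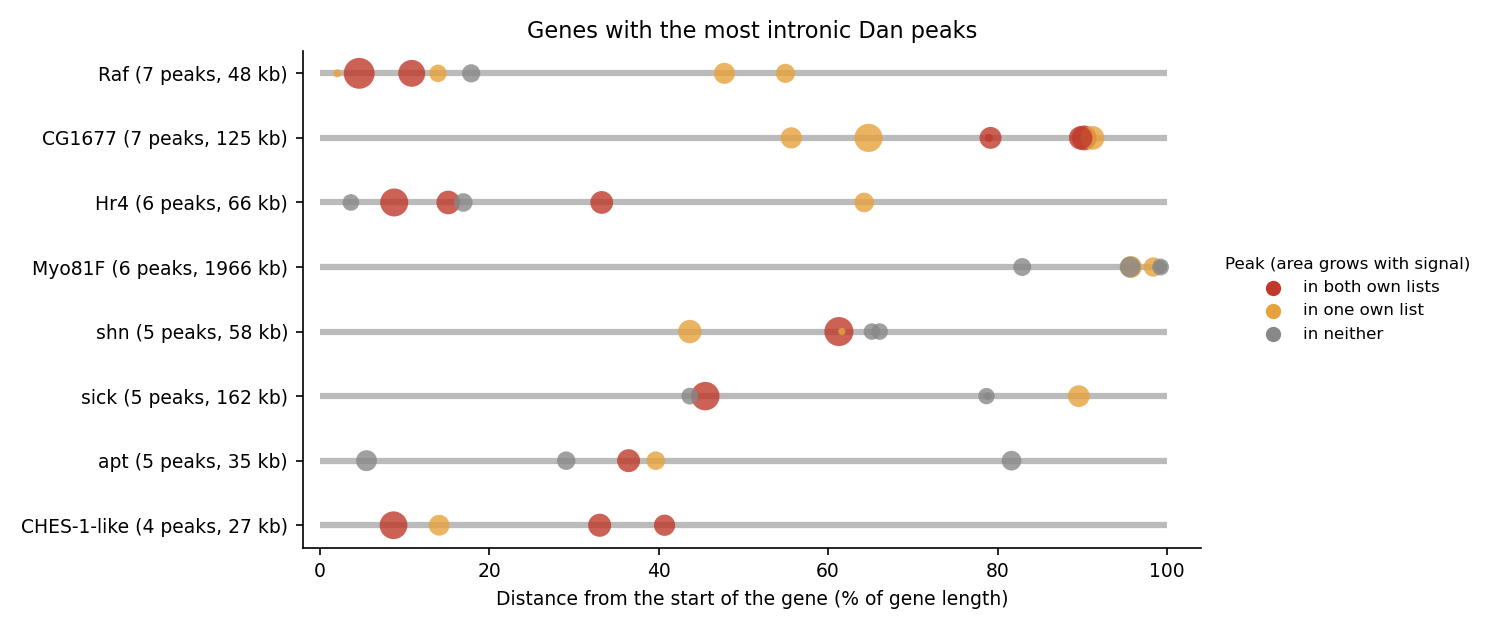
Position of each intronic peak along 8 genes with the most (CHES-1-like shares its number of 4 with CG43658 and DIP-lambda, which are not drawn), as distance from the start of the gene in percent of its length, with the area of a circle growing with joint signal and its colour giving the own lists it is in. Raf and Hr4 hold peaks from close to the start of the gene onwards, whereas those of Myo81F lie towards its end.

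Gene lists drawn up for this tissue, with earlier results of these data known, were read against the 8.92% of all 3477 genes and against the intron length of each list. Of these genes, those with 10 to 50 kb of allowed intron held an intronic peak in 15.4%, and those above 50 kb in 32.0%. In the EGF receptor pathway 4 of 8 genes with a ranked intronic region held an intronic peak, with a median of 19.6 kb of allowed intron per gene. They were aop, S, pnt and aos. aos encodes the secreted antagonist Argos, and its peak, in an intron shared with CG33158, had a joint signal of 255, with 171 in replicate 1 and 86.9 in replicate 2. pnt encodes the ETS activator Pointed, and its peak had 116, 47.1 and 71.2. All 4 had a peak in both own lists.

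Genes of other signalling pathways were hosts in small numbers, out of short lists. The median of allowed intron per gene was 14.4 kb in the Wnt and Hedgehog list, 11.7 kb in the BMP list and 23.5 kb in the Notch list. In the Wnt and Hedgehog list 3 of 12 were occupied, fz, the feedback inhibitor gene nkd with 129 and the ligand gene wg with 83.3. wg had no overlapping region in replicate 1. In the BMP list 3 of 11 were occupied, shn, the Smad gene Mad with 178, and sog, the gene of the extracellular inhibitor Short gastrulation, with 104. In the Notch list 2 of 6 were occupied, the receptor gene N with 174 and the coactivator gene mam with 111, and both had a peak in both own lists. For N and mam, however, the nearest TSS was that of another gene.

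The ecdysone cascade had 5 of 13 genes occupied and the most peaks of any pathway list, 15. Besides Hr4 and Hr3 these were Eip75B, a nuclear receptor gene whose strongest of 3 peaks had 133 in the joint list, 77.3 in replicate 1 and 58.4 in replicate 2. The transporter gene E23 had 110 and the coactivator gene tai 73.3, and neither had a peak in both own lists. The genes of this list are long, with a median of 42.9 kb of allowed intron. Per Mb of allowed intron the list had 28.2 peaks, against 36.1 in the EGF receptor list, 38.4 in the BMP list and 8.15 over all genes.

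Among transcription factors of tissues, bab2 and bab1, BTB-domain genes of distal limb identity, had peaks of 138 and 91.0. Antp, the Hox gene that opposes antennal fate, had 128, and the homeodomain gene Lim1 had 121. These were the 4 occupied genes of 17 in the antenna and distal limb list, and those of bab2, Antp and Lim1 were in both own lists. In the mesoderm and muscle list 5 of 17 genes were occupied, led by zfh1, the integrin gene mew with 232 and kirre, a myoblast fusion gene, with 210. The TSS nearest to this mew peak was that of another gene, CG32639. The median of allowed intron per gene was 17.5 kb in the antenna and distal limb list and 16.8 kb in the mesoderm and muscle list. grh, the epidermal and neuroblast factor Grainy head, had 199, with 97.1 in replicate 1 and 104 in replicate 2.

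Genes of the nervous system were spread over several lists. In axon guidance 7 of 23 were occupied, led by the netrin receptor gene fra with 173 and the semaphorin gene Sema1a with 143, and only the peak of Sema1a was in both own lists. The median in that list was 27.0 kb of allowed intron. Among ion channels and synapse 5 of 36 were occupied, led by KCNQ and by Elk with 188, with a median of 20.2 kb of allowed intron. Neuronal recognition and adhesion had 10 of 74, 13.5%, with a median of 32.4 kb of allowed intron, and 0 of the 10 had a peak in both own lists. Their strongest peak was that of beat-Ib, with a signal of 113. For the peaks of fra, KCNQ, Elk and beat-Ib the nearest TSS was that of another gene. By the gene with the nearest TSS, 4 axon guidance, 2 ion channel and synapse, and 6 neuronal recognition genes were counted.

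Among chromatin genes, 3 of 9 Polycomb and Trithorax genes were occupied, Trl, trx with 88.5 and ph-p with 76.5. The median over all 9 genes was 1.45 kb of allowed intron, and the occupied ones had 6.05 kb in Trl, 9.36 kb in trx and 3.33 kb in ph-p. None of the 3 had a peak in both own lists, and that of trx, as that of Trl, had no region in replicate 2. In RNA-binding and splicing 5 of 19 were occupied, or 26.3%, led by mub and Rbfox1 with 163. The TSS nearest to the Rbfox1 peak was that of another gene, CG6527. The genes of that list are long, with a median of 72.2 kb of allowed intron, and of all genes above 50 kb 32.0% were occupied. In cytoskeleton and cell shape 6 of 20 were occupied, led by sn, the gene of fascin, with 129, and the median was 13.8 kb of allowed intron. Retinal determination had 0 of 6, neuroblast polarity 0 of 8 and cell cycle 0 of 5, and at these sizes a count of 0 allows shares of up to 50%, 37.5% and 60%.

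**Figure D5:**
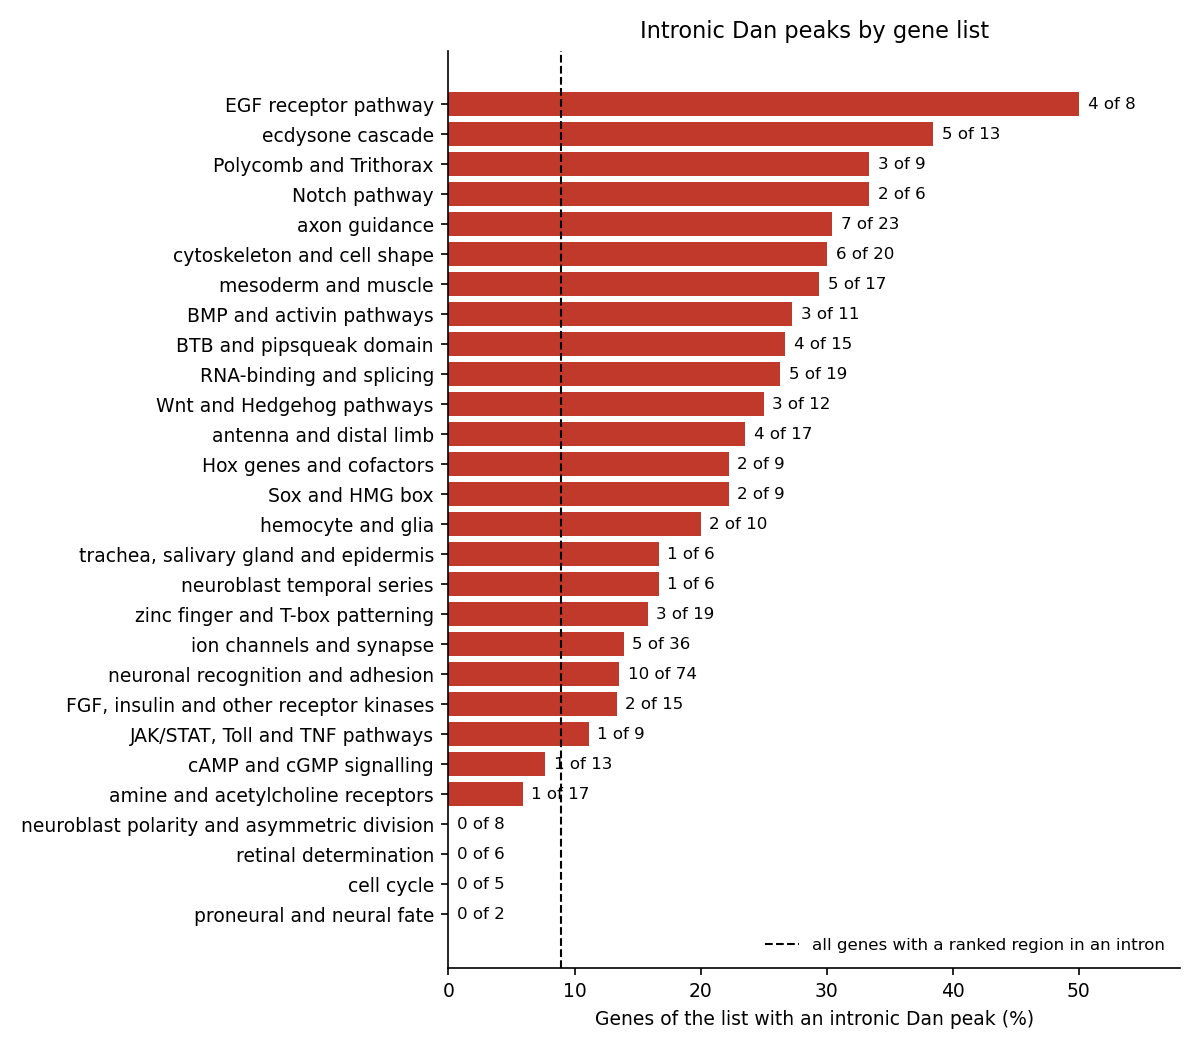
Share of the genes of each of 28 lists that hold an intronic Dan peak, in percent of those with a ranked region in an intron, with the counts beside the bars. The dashed line is the 8.92% of all such genes, and EGF receptor pathway genes stand at the top with 4 of 8. The shares are not adjusted for intron length.

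At the tagged gene itself, dan lies inside an intron of lobo on 3R, from position 25184383 to 25192806 in dm6. The strongest peak there was an intronic one of lobo, 5675 bp from the TSS of dan, with a joint signal of 269, 189 in replicate 1 and 76.0 in replicate 2. A second lobo peak, 7183 bp from that TSS, had 61.8. The promoter peak at dan, 58 bp from its TSS, had 68.5 and was in neither own list. Within 5000 bp of dan there were 4 peaks, all at promoters, the strongest with 81.6 at 482 bp from a TSS of lobo. The intronic lobo peaks lie outside that limit. By the same limit danr had 0 peaks.

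Compared with the other classes of peaks, intronic peaks were weaker and less often called in each replicate than promoter peaks. They overlapped a peak of both own lists in 32.3% (27.7 to 37.1%), against 48.1% of promoter peaks (Fisher's exact test, adjusted p = 7.99e-06), and 26.8% of intergenic peaks (Fisher's exact test, adjusted p = 0.152). Their signal was above the median of all arm peaks in 49.1%, against 64.1% of promoter peaks (Fisher's exact test, adjusted p = 2.62e-05) and 42.6% of intergenic peaks (Fisher's exact test, adjusted p = 0.148). Each adjusted p here is from a Fisher's exact test, two-sided, with the Benjamini-Hochberg method over 13 tests.

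In base composition intronic peaks stood between promoter peaks and weaker intronic regions. A GC content of at most 40% was found in 62.5% of their windows, against 79.1% of promoter peaks (Fisher's exact test, adjusted p = 3.61e-07), 56.3% of intergenic peaks (Fisher's exact test, adjusted p = 0.148) and 22.0% of weaker intronic regions (Fisher's exact test, adjusted p = 2.58e-66). Summits in soft-masked sequence made up 19.1%, against 29.7% of promoter peaks (Fisher's exact test, adjusted p = 5.50e-04), a difference of opposite sign in replicate 1's own list, and 15.1% of weaker intronic regions (Fisher's exact test, adjusted p = 0.049), a call that ended when only exons of protein-coding genes were left out. Another peak lay within 5000 bp of 35.7% of intronic peaks, against 22.2% of promoter peaks (Fisher's exact test, adjusted p = 2.62e-05) and 35.9% of intergenic peaks (Fisher's exact test, adjusted p = 1). With replicate 2's own list alone the differences from promoter peaks in signal, soft-masking and clusters were not called (adjusted p = 0.0856, 0.153 and 0.0558 by Fisher's exact test). With replicate 1's alone that in GC content was not (adjusted p = 0.0835 by the same exact test). For each measure the intronic and intergenic peaks differed by no more than 6.53 percentage points, and none of those differences passed the adjustment.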

How the data were processed

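Peaks came from whole embryos, 2 biological replicates, on the dm6 build, per the labels. The authors deposited ranked and thresholded lists for each replicate and for both together. Each region carries a deposited signal, whose scale is not stated, a deposited score, which is a scaled logarithm of the irreproducible discovery rate (IDR), and a deposited −log10 q. An aligner or peak caller was not given in the sources used here. The depth is unknown. The joint list has scores of at least 830, which, read as a scaled logarithm, is an IDR of 0.01 (the labels state no threshold), and all 1396 of its peaks were found in the joint ranked list of 130611 regions. Summits were placed on 13968 protein-coding genes of Ensembl release 115, with sequence from RefSeq on the same assembly.

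A replicate's signal is that of the strongest region of its ranked list overlapping the peak by at least 1 bp. Each share was tested with Fisher's exact test, two-sided, and adjusted by the Benjamini-Hochberg method over 13 tests. Intervals are exact binomial at 95% and, like the limit of 3 counts for a count of 0, cover counting error only. Strings were counted on both strands within 100 bp of the summit. Of 576 listed symbols 572 were matched. Named genes are the hosts of the 25 strongest peaks in both replicates' own lists, up to 4 per gene list, 8 with most peaks (a tie at 4 peaks settled by signal), dan and danr. The members and lists were chosen with earlier results of these data known. brk, unc-119, Dok, the genes at the 500 bp limit, lobo's second peak and the flank bounds were chosen after their values were seen. Alternatives changed the list, the distance, the IDR threshold, the exons, the replicates, the overlap, the window and the gene assigned. Scripts ran in Python 3.11.15 with scipy 1.17.1, pandas 2.3.3, numpy 2.4.6 and, for plots, matplotlib 3.10.9.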

Additional observations from a re-analysis of the deposited data

How the results depend on the processing

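The deficit against promoter peaks in both-list overlap and the excesses of low GC and first introns over weaker intronic regions kept direction and call under every alternative run, at -18.7 to -10.9, 39.5 to 54.1 and 13.3 to 32.9 percentage points. The count of intronic peaks was 142 at an IDR of at most 0.001, 384 with signals of at least 30, a limit chosen after seeing the data, and 145 to 335 when a single replicate's own list was used.

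With a single replicate's own list, the difference from promoter peaks ran from -11.1 to -10.7 points for signal, -13.7 to -6.05 for low GC, -8.11 to 0.568 for soft-masked summits and 9.27 to 11.0 for clusters, and each lost its call in at least 1 replicate. Against intergenic peaks it ran from 3.05 to 5.82 for soft-masked summits and -0.0137 to 1.20 for clusters, and from -0.0157 to 7.49 for overlap with 1 replicate's list, all without a call. Against intergenic peaks, calls appeared with the conservative list (overlap 8.92, signal 11.0 points), with exons of protein-coding genes only (low GC 8.54) and with GC within 50 bp (8.36). The sign turned without a call for clusters at more than 200 bp from start sites (3.32) and for soft-masked summits at an IDR of at most 0.001 (1.55). Soft-masked summits against weaker intronic regions lost the call with exons of protein-coding genes only (3.39). The causes were not tested. Assigning peaks to the nearest TSS left 4 axon guidance, 2 cytoskeleton, 6 neuronal recognition, 2 ion channel, 1 receptor kinase, 1 HMG box and 0 Notch genes. No paired analysis was possible because there is only 1 group.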
